A study of Limodorum abortivum with 6 samples.

Results

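The genes described here are 6 protease genes of the orchid *Limodorum abortivum*, out of 100005 assembled genes in the count files of its roots. They were chosen by gene identifier, from those that the plant gene table of the study describes as subtilisin-like, serine carboxypeptidase-like, aspartic or cysteine proteases. Of the 6 genes, 3 are subtilisin-like (MSTRG.37, MSTRG.38 and MSTRG.1627), 2 are serine carboxypeptidase-like (MSTRG.246 and MSTRG.1958), 1 is aspartic (MSTRG.903) and 0 are cysteine proteases. The taxonomic classification in that table placed 5 genes in *Dendrobium catenatum* and 1 gene, MSTRG.246, in *Phalaenopsis equestris*, both of them orchids. RNA was sequenced from adult plants growing wild at 1 site in Piedmont, with LM3, LM4 and LM6 as the 3 libraries of mycorrhizal roots and LS2, LS3 and LS6 as the 3 of roots without mycorrhiza. The plants received no treatment, and the root segments, which came from different individuals, were sorted into LM and LS by their thickness and colour and by hand sections. LS roots were exposed to the fungi and bacteria of the soil as LM roots were, so that LS is not a sterile control.

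*L. abortivum* is a mixotrophic orchid, whose root cells house coils of fungal hyphae that the plant later digests. Subtilisin-like proteases, or subtilases, are serine endopeptidases that plants secrete in large families, and several take part in cell wall remodelling, peptide maturation and responses to microbes. Serine carboxypeptidase-like proteins trim residues from the C terminus of proteins, and some of the family act instead as acyltransferases. Aspartic proteases of the A1 family cut proteins at an acidic pH in the vacuole or the apoplast.

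Gene counts summed to between 5364549 and 6019195 in the LM libraries and between 4748078 and 5809054 in the LS libraries. Levels are given as CPM, the count of a gene per 1000000 gene counts of its library after scaling by edgeR's TMM factors, and a library with 0 counts of a gene may hold up to 3 counts, or 0.473 to 0.688 CPM. Gene lengths were not used, so levels were compared between libraries and not between genes. Reads that overlapped more than 1 gene were not counted, and they made up 10.8% to 11.7% of the gene and ambiguous counts together in LM and 19.5% to 29.3% in LS. Of 6 plant genes for photosystem or antenna proteins, taken here as a guide to green tissue, the summed level was 1.65 to 3.15 CPM in LM and 9.64 to 23.3 CPM in LS. In each library 0 to 3 of them were at 0. The antenna gene MSTRG.13 alone gave 69 of the 121 counts in LS2, and MSTRG.2621 was also described as a Toll/interleukin-1 receptor-like protein. In LS3, the photosystem II reaction center genes MSTRG.303, MSTRG.445 and MSTRG.2502 gave 5, 18 and 15 of the 58 counts. Whether these genes mark green tissue in these roots was not tested. The part of the ambiguous reads and of green tissue in the results was not tested.

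The reads of most of these genes lay in single libraries. For 4 of the 6 genes, 1 library held at least 50% of the CPM, and that library was LS3 for the 3 subtilisin-like genes and LM3 for the carboxypeptidase-like MSTRG.246. Among the plant genes listed in the part of the study's table used here, called the listed plant genes, 15.5% were so concentrated, and 3.45% of the list were so in LS3 and 2.76% in LM3. Among all genes of the files with at least 10 counts, which include fungal genes, it was 35.7%. The other 2 genes, the aspartic MSTRG.903 and the carboxypeptidase-like MSTRG.1958, were read in every library and had lower CPM in each LM library than in each LS library (for MSTRG.1958 after TMM scaling alone), as 13.9% of all tested genes and 20.8% of the listed plant genes had. Of the 6 proteases only these 2 passed the filter of edgeR that removes genes with few counts, as 22268 genes did in all. Of the listed plant genes that passed it, 8.59% had at least 50% of their CPM in 1 library. Those that did not pass it, as the 4 concentrated proteases did not, were thus so concentrated more often than 15.5%.

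**Figure D1:**
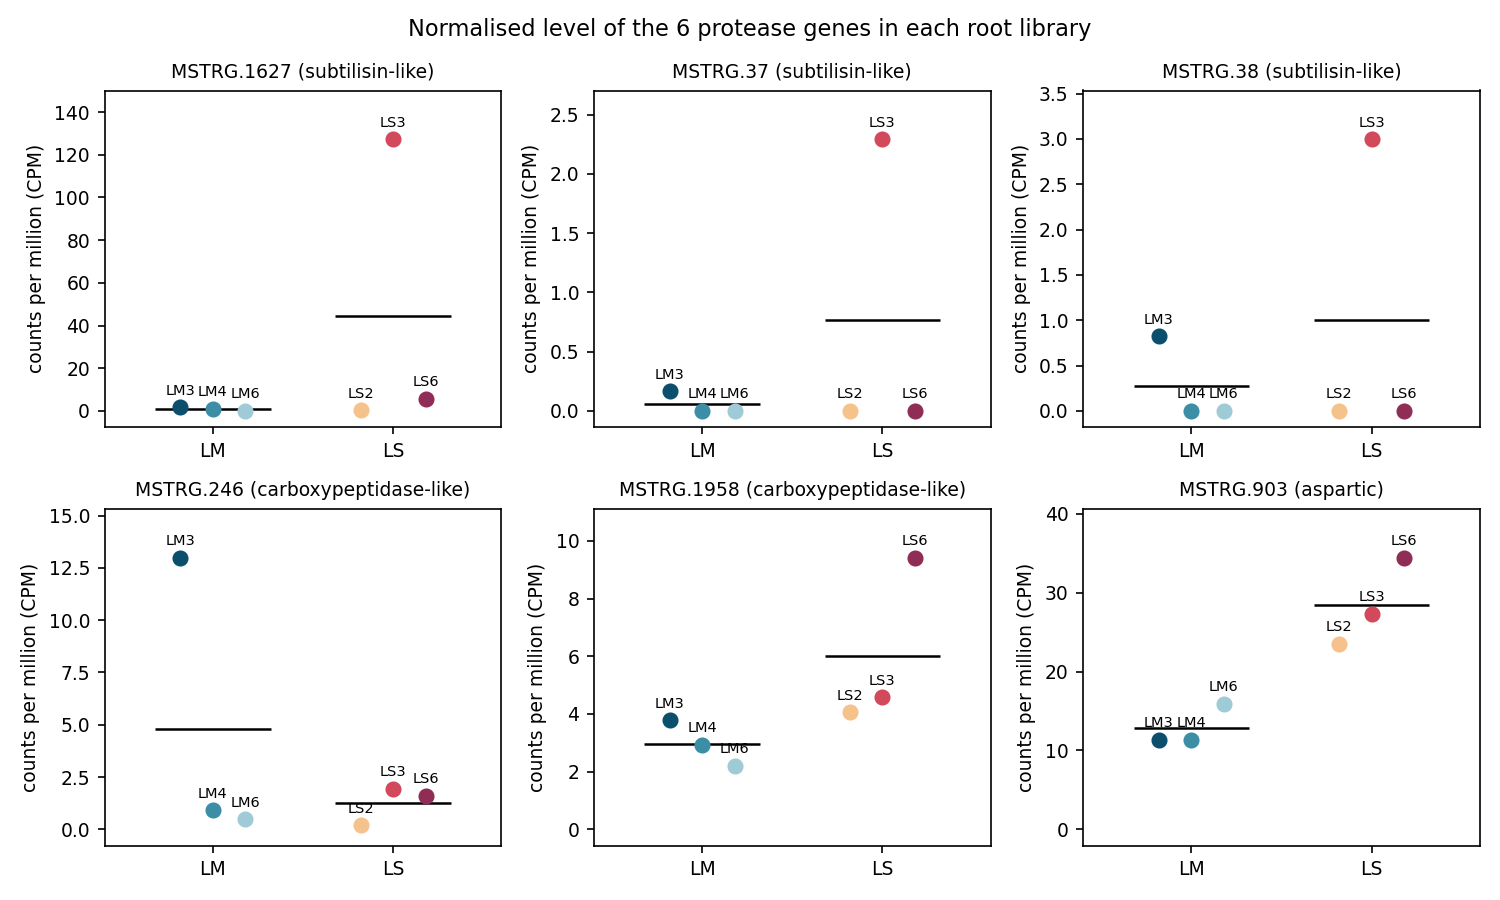
Level of each of the 6 protease genes in CPM (vertical axis, its scale differs between panels) in the 3 LM and 3 LS libraries, with a point for each library and a line at the group mean. LS3 stood far above all other libraries for MSTRG.1627, at 127 CPM, LM3 for MSTRG.246, at 13.0 CPM, and only in the panels of MSTRG.1958 (under this scaling alone) and MSTRG.903 do all LM points lie below the LS points.

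Fitted to all genes, the quasi-likelihood test of edgeR called 0 of the 2 proteases that it tested, a call being a Benjamini-Hochberg adjusted p under 0.05, and 1 of them, MSTRG.903, had an unadjusted p under 0.05. Of all 22268 genes tested, 3.09% were called (688 genes), and 0.458% were called as lower in LM. There were 5101 calls without LM6 and 0 without any other single library, where an unadjusted p under 0.05 was still found for 4478 to 9231 genes. Whether the smaller number of libraries or the library left out moved the calls was not tested. edgeR's likelihood ratio test, which called 20.7% of all genes, and limma-voom, which called 4.58%, also called 0 of the 2. DESeq2, fitted to all genes without that filter, gave an adjusted p to 5 of the proteases and called 1, MSTRG.1627, where it called 18.9% of all genes and 1.36% as lower in LM.

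MSTRG.1627 was described as SBT1.5 or SBT1.7, of which SBT1.7 is known in *Arabidopsis* from the release of seed coat mucilage. It had 10, 6 and 0 counts in LM3, LM4 and LM6, against 1, 722 and 25 counts in LS2, LS3 and LS6. In CPM these were 1.64, 1.10 and 0 in LM, against 0.193, 127 and 5.74 in LS. LS3 alone was high, LS6 was above every LM library, and LS2 was below LM3 and LM4, so that the groups overlapped. LS3 held 94.5% of the counts of the gene (95% exact binomial interval 92.6% to 96.0%). Its CPM was 22.2-fold that of LS6, the next library. Such intervals cover counting error only and leave out the spread between libraries. They also treat each read as a separate molecule, which could not be checked, since the reads carried no molecular identifiers.

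The mean of MSTRG.1627 was 0.914 ± 0.837 CPM in LM and 44.4 ± 71.8 CPM in LS (SD, n = 3 each), a log2 ratio of means of -5.60. The LS SD was larger than the LS mean, and the difference did not pass the test over libraries (exact permutation test, two-sided, p = 0.3, where 0.1 is the smallest p that 3 against 3 libraries allow). Without LS3, the LS mean was 2.96 CPM and the log2 ratio -1.92. The gene did not pass the filter, and edgeR's quasi-likelihood test without a filter gave it a log2 fold change of -5.78 (standard error 1.96, adjusted p = 0.140), where 0.351% of all genes were called. DESeq2 on all genes gave -5.40 (standard error 2.00, adjusted p = 0.0404), and DESeq2 on the listed plant genes alone, where 7.39% of genes were called, an adjusted p of 0.0725. The 9 alternative fits that gave it an adjusted p ranged from 0.0404 to 0.426. These p-values measure the spread between these libraries, and in whole root segments fewer cells of a type and less RNA per cell cannot be told apart.

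MSTRG.37 was described as SBT1.7 or SBT1.6, and MSTRG.38 as SBT1.2 or SBT1.5, of which SBT1.2 sets the density of stomata in *Arabidopsis*. Both came from the same component of the Trinity assembly, so that reads of 1 locus may have been split between them. MSTRG.37 had 1, 0 and 0 counts in LM3, LM4 and LM6, against 0, 13 and 0 counts in LS2, LS3 and LS6. MSTRG.38 had 5, 0 and 0 counts in LM, against 0, 17 and 0 counts in LS. Both genes were read in LM3 and LS3 alone, were higher in LS3 and were at 0 in the other 4 libraries, and the groups overlapped.

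LS3 held 92.9% of the 14 counts of MSTRG.37 (95% exact binomial interval 66.1% to 99.8%) and 77.3% of the 22 counts of MSTRG.38 (54.6% to 92.2%). The ratio of summed counts, LM over LS and scaled for depth, was 0.0655 for MSTRG.37 (95% exact counting interval 0.00154 to 0.436) and 0.250 for MSTRG.38 (0.0722 to 0.707). In CPM, LM3 had 0.164 and LS3 2.29 for MSTRG.37, and LM3 had 0.821 and LS3 3.00 for MSTRG.38. A permutation of the libraries is no test here, since with 1 library read in each group every division gives a difference at least as large. Without LS3 there were 1 count of MSTRG.37 and 5 counts of MSTRG.38 in LM, against 0 counts of either gene in LS, so that the lower level in LM rested on LS3. Summed as 1 locus, the genes had 6, 0 and 0 counts in LM, against 0, 30 and 0 in LS, and LS3 held 83.3% (67.2% to 93.6%). The sum did not pass the filter either.

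The 3 subtilisin-like genes together had 16, 6 and 0 counts in LM3, LM4 and LM6, against 1, 752 and 25 counts in LS2, LS3 and LS6. LS3 thus held most of the counts of these 3 genes. This does not extend to subtilisin-like genes in general, since MSTRG.1358, described below, was highest in LM3. Those outside the listed plant genes were not examined. The paper reports a cucumisin, which is also subtilisin-like, as its most upregulated gene in mycorrhizal roots. It describes high upregulation of subtilisin-like transcripts there more widely. A serine carboxypeptidase, aspartic proteinases and cysteine proteases are also on its list of the most upregulated genes. The transcripts of that list are not among the 6 proteases, so the values here do not bear on them. In LS3, MSTRG.1627 gave 76.5% of the counts of all 6 proteases. In the other LS libraries, MSTRG.1627 gave 0.690% of the protease counts in LS2 and 11.2% in LS6. Without MSTRG.1627, the protease counts were 177, 83 and 118 in LM, against 144, 222 and 198 in LS, and the groups overlapped.

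**Figure D2:**
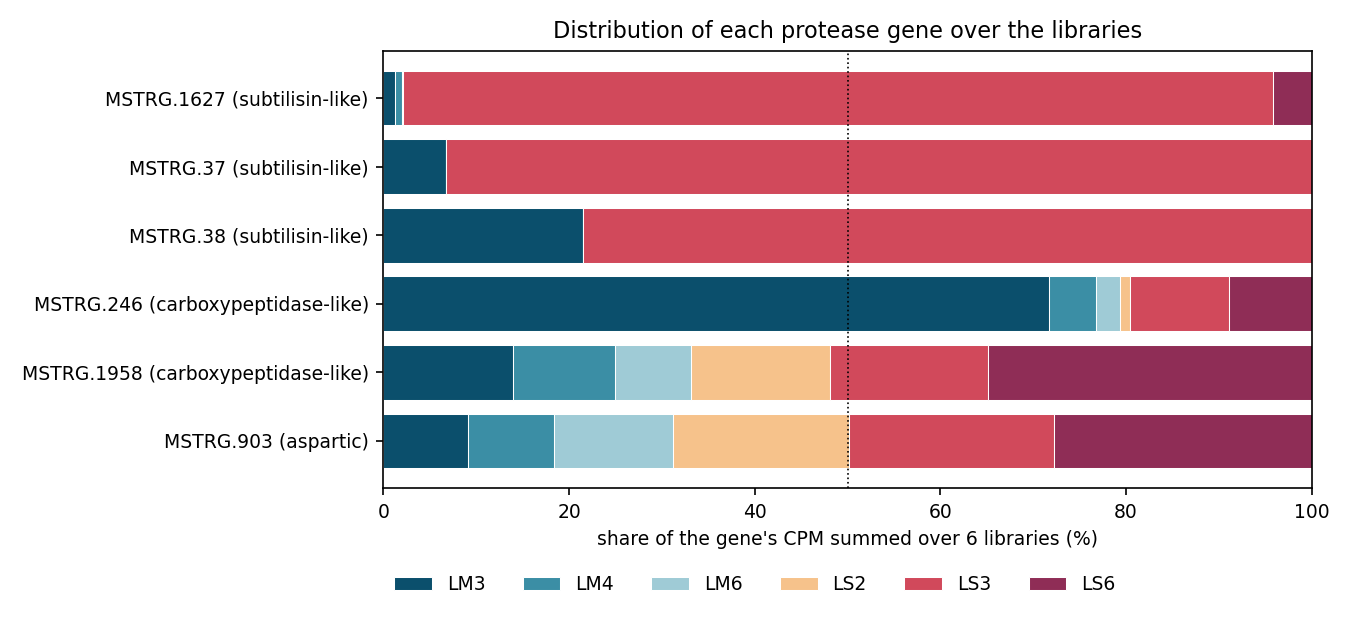
Share of each gene's CPM, summed over the 6 libraries, that each library held (horizontal axis, percent), with LM libraries in blue and LS libraries in orange to purple, and a dotted line at 50%. LS3 filled most of the bars of the 3 subtilisin-like genes and LM3 that of MSTRG.246, whereas no library held more than 34.9% of MSTRG.1958 or MSTRG.903.

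MSTRG.246, described as serine carboxypeptidase-like 36 or 29, was the only protease of the 6 whose mean was higher in LM. It had 79, 5 and 3 counts in LM3, LM4 and LM6, against 1, 11 and 7 counts in LS2, LS3 and LS6. In CPM these were 13.0, 0.917 and 0.473 in LM, against 0.193, 1.94 and 1.61 in LS. LM3 alone was high, and LM4 and LM6 were below LS3 and LS6, so that the groups overlapped. LM3 held 74.5% of the counts (95% exact binomial interval 65.1% to 82.5%) and had 6.70-fold the CPM of LS3, the next library.

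The mean of MSTRG.246 was 4.79 ± 7.09 CPM in LM and 1.25 ± 0.927 CPM in LS (SD, n = 3 each), a log2 ratio of 1.94. The LM SD was larger than the LM mean, and the difference did not pass the test over libraries (exact permutation test, two-sided, p = 0.8). Without LM3 the LM mean was 0.695 CPM and the log2 ratio changed sign, to -0.82. The ratio of summed counts was 3.90 (95% exact counting interval 2.35 to 6.78), an interval that leaves out the spread between libraries. edgeR's quasi-likelihood test without a filter gave a log2 fold change of 1.70 (standard error 1.29, adjusted p = 0.472).

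MSTRG.1958, described as serine carboxypeptidase-like 46 or 45, was read in every library. It had 23, 16 and 14 counts in LM3, LM4 and LM6, against 21, 26 and 41 counts in LS2, LS3 and LS6. Its levels were 3.78, 2.94 and 2.21 CPM in LM, against 4.05, 4.58 and 9.41 CPM in LS. LS6 stood above the rest, and LM3 was just below LS2. The groups did not overlap in these CPM, but they did in raw counts, with library sizes alone, with RLE factors and with both scalings to the listed plant genes.

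MSTRG.1958 averaged 2.97 ± 0.787 CPM in LM and 6.01 ± 2.95 CPM in LS (SD, n = 3 each), with p = 0.1 in the two-sided exact permutation test, the smallest it can give. edgeR's quasi-likelihood test gave a log2 fold change of -1.01 (standard error 0.53, p = 0.102, adjusted p = 0.298). The fold change was -0.72 without LS6 and -1.40 without LS2, the ends of the range when single libraries were left out. Its adjusted p ranged from 0.207 to 0.569 over 18 alternatives, so the lower mean in LM did not pass the test in any of them. The edgeR fits of the listed plant genes alone, however, called no gene at all. Nor did any fit without a single library other than LM6. The 2 carboxypeptidase-like genes together had 102, 21 and 17 counts in LM, against 22, 37 and 48 counts in LS, and the groups overlapped.

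MSTRG.903 was described as aspartyl protease family protein 2 or ASPARTIC PROTEASE IN GUARD CELL 1, a protein known in *Arabidopsis* from guard cells and drought avoidance. It had 69, 62 and 101 counts in LM3, LM4 and LM6, against 122, 155 and 150 counts in LS2, LS3 and LS6. Its levels were 11.3, 11.4 and 15.9 CPM in LM, against 23.5, 27.3 and 34.4 CPM in LS. Every LM library was below every LS library in raw counts and under all 5 other scalings tried, with LM6 the nearest to LS.

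MSTRG.903 averaged 12.9 ± 2.63 CPM in LM and 28.4 ± 5.53 CPM in LS (SD, n = 3 each), with p = 0.1 in the two-sided exact permutation test, the smallest it can give. edgeR's quasi-likelihood test gave a log2 fold change of -1.14 (standard error 0.39, p = 0.0254), but after Benjamini-Hochberg adjustment p was 0.128. An unadjusted p under 0.05 with a lower level in LM was found for 6.90% of all genes tested and for 9.28% of the listed plant genes. Leaving out single libraries moved the fold change between -1.45 and -1.03. Its adjusted p ranged from 0.0596 to 0.332 over 18 alternatives, and 0 of them called it. No gene at all was called by the edgeR fits of the listed plant genes alone. The same held for each fit without a single library other than LM6. Summing MSTRG.37 and MSTRG.38 left the fit of MSTRG.903 unchanged, so the 18 were not all separate chances to call it.

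The median log2 fold change was -0.07 over all genes tested and -0.26 over the 722 listed plant genes tested, of which 255 were higher and 467 lower in LM. Relative to the median of the listed plant genes, the log2 fold change was -0.88 for MSTRG.903 and -0.75 for MSTRG.1958. Of the listed plant genes tested, 14.0% had a lower fold change than MSTRG.903 and 16.5% a lower one than MSTRG.1958. With RLE factors the median of all genes was 0.14 and that of the listed plant genes -0.05, and the fold change of MSTRG.903 was then -0.94. The paper reports more fungal reads, on average, in LM than in LS. The TMM factors above were taken over plant and fungal genes together. In the edgeR fits of the listed plant genes alone, the fold change was -0.90 for MSTRG.903 and -0.76 for MSTRG.1958. This held with plant reads and with summed counts as library sizes. The part of the fungal reads in the fold changes was not tested.

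**Figure D3:**
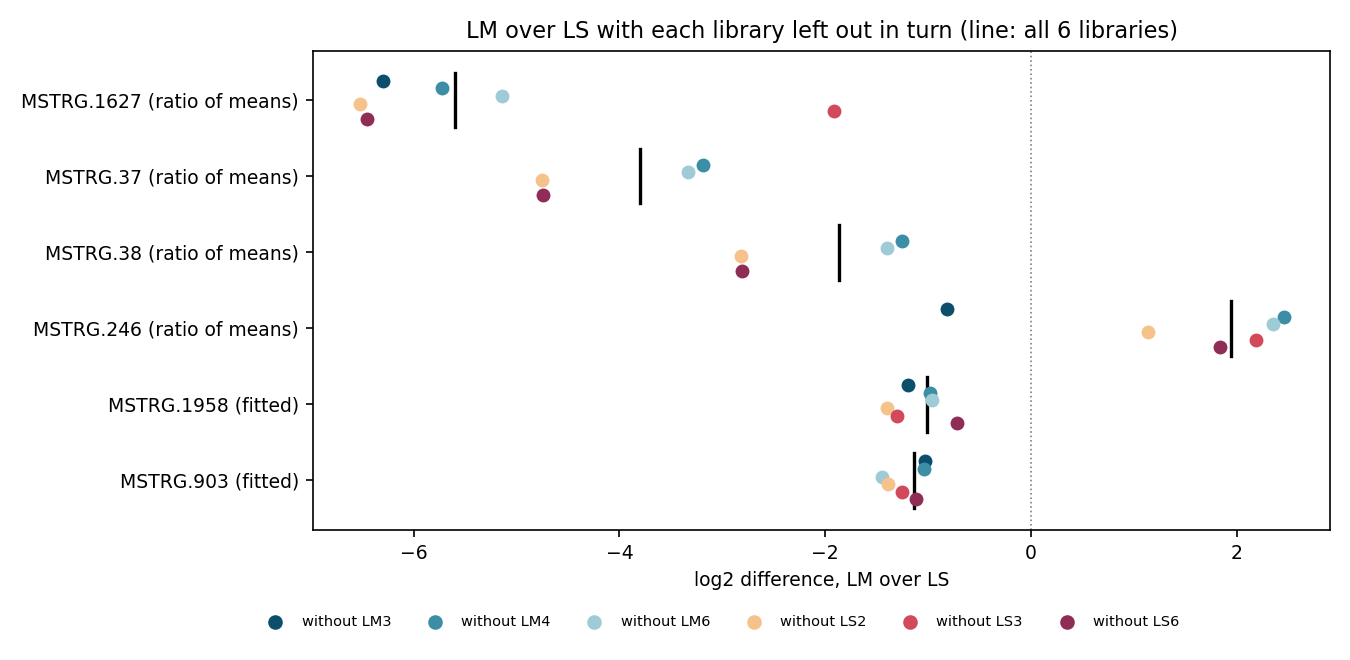
Difference between LM and LS of each gene on the log2 scale (horizontal axis), from 5 libraries (points, coloured by the library left out) and from all 6 (black line), as a fitted fold change for MSTRG.1958 and MSTRG.903 and a ratio of mean CPM for the others. MSTRG.1627 moved to -1.92 without LS3 and MSTRG.246 to -0.82 without LM3, and there is no point for MSTRG.37 and MSTRG.38 without LM3 or LS3, where a group had 0 counts.

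The concentration in 1 library was set beside that of the listed plant genes, for which an even spread would give each library 16.7%. Their median share in the highest library was 30.7%, and it was 42.0% over all genes with at least 10 counts. A share at least as high as that of MSTRG.1627, 93.6% of its CPM, was found for 1.12% of the listed plant genes, and as high as that of MSTRG.37 for 1.21%. The corresponding values were 4.23% for MSTRG.38 and 6.13% for MSTRG.246. MSTRG.37 and MSTRG.38 rested on only 14 and 22 counts, and the listed plant genes were not matched to the proteases for counts. The share of MSTRG.1958 was reached by 40.2% of the listed plant genes and that of MSTRG.903 by 60.8%.

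**Figure D4:**
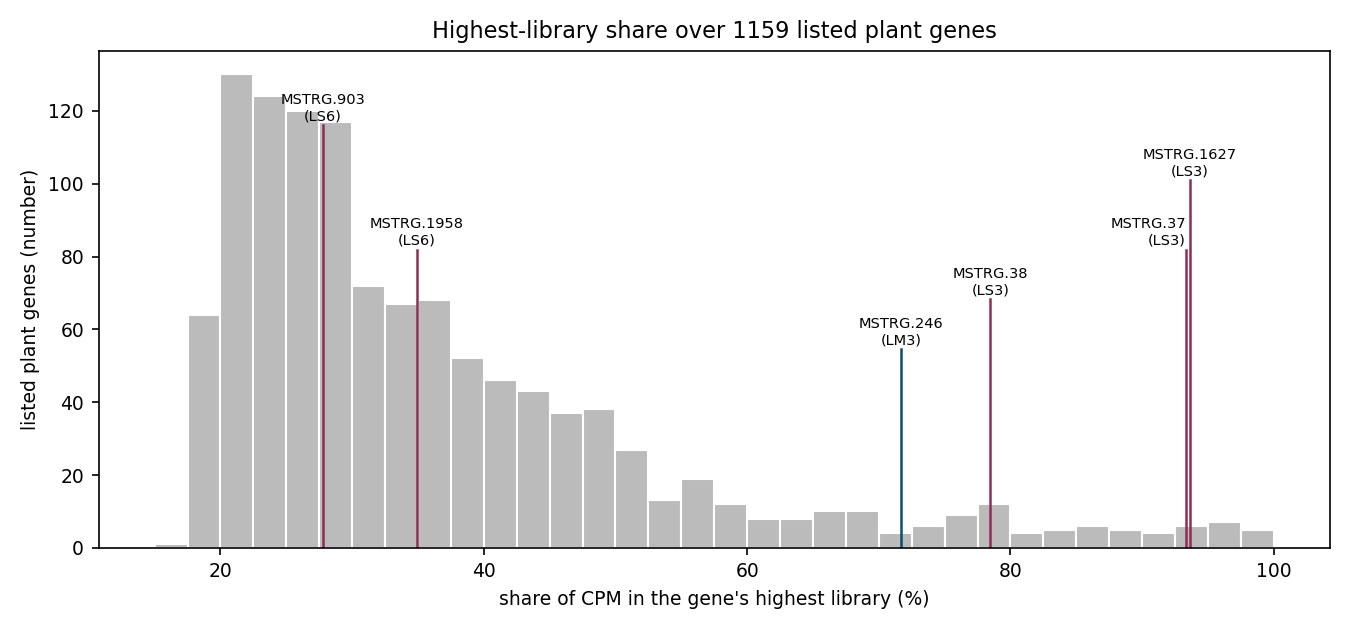
Number of listed plant genes (vertical axis) by the share of a gene's CPM held by its highest library (horizontal axis, percent), with vertical lines at the 6 protease genes and the highest library of each in brackets. MSTRG.1627 and MSTRG.37, at 93.6% and 93.3%, lay in the far tail, MSTRG.38 and MSTRG.246 in the thin part above 70%, and MSTRG.1958 and MSTRG.903 in the bulk.

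The study's table annotated 35 listed plant genes with peptidase activity, of which 6 are the genes above and 13 are polyproteins of transposons. This list may be incomplete, since the GO terms at hand were cut short for some genes. Of the other 16, which include proteasome subunits, deubiquitinases and an aminopeptidase, 13 were tested. In LM, 3 were higher and 10 lower, with log2 fold changes from -0.46 to 0.79 and a median of -0.24. edgeR's quasi-likelihood test called 0 of them, 0 had an unadjusted p under 0.05, and their adjusted p ranged from 0.544 to 0.959. The likelihood ratio test, limma-voom and DESeq2 also called 0. Of the 722 listed plant genes tested, that quasi-likelihood test called 4, and 99 had an unadjusted p under 0.05, as 5782 of all 22268 genes had. Of those 722, 255 were higher and 467 lower in LM, with a median of -0.26, near that of these peptidase genes. A single library held at least 50% of the CPM for 1 of these 16 genes, against 4 of the 6 proteases. The sets were not matched for counts, since 13 of the 16 passed the filter, against 2 of the 6 proteases. Of the listed plant genes 15.5% were so concentrated, and of those that passed the filter 8.59%. Those that did not pass, as the 4 concentrated proteases did not, were thus so concentrated more often than 15.5%.

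The fourth subtilisin-like gene among the listed plant genes, MSTRG.1358 (SBT3.10 or SBT3.18), was not concentrated in LS3. It had 14, 3 and 3 counts in LM3, LM4 and LM6, against 5, 1 and 3 counts in LS2, LS3 and LS6, and was not tested. LM3 was its highest library, with 44.6% of its CPM, and LS3 its lowest. Of the transposon polyproteins 2 were tested and both were lower in LM. The Gag-Pol polyprotein MSTRG.2132 had 9, 2 and 9 counts in LM3, LM4 and LM6, against 22, 19 and 9 counts in LS2, LS3 and LS6. Its log2 fold change was -1.54 (standard error 0.59, adjusted p = 0.168 from edgeR's quasi-likelihood test), with an unadjusted p of 0.0401 from the same test.

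The listed plant genes whose levels ran most like those of the 2 tested proteases were found by Pearson's r of log2 CPM over the 6 libraries, among 537 described genes. For MSTRG.903 they were a U-box protein (MSTRG.2021, r = 0.993), an AT-hook nuclear-localized protein (MSTRG.1649, r = 0.981) and an isoflavone reductase homolog (MSTRG.1874, r = 0.969). For MSTRG.1958 they were a serine acetyltransferase (MSTRG.1079, r = 0.982), the TRAUCO or ASH2 histone methyltransferase subunit (MSTRG.2592, r = 0.970) and a sphingolipid delta(4)-desaturase (MSTRG.938, r = 0.949). With 6 libraries such values were common, since 74 of the 537 genes had an r above 0.8 with MSTRG.903 and 28 with MSTRG.1958. All these genes share the depth of the 6 libraries and the division into LM and LS.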

How the data were processed

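Paired-end reads of polyA-enriched RNA came from 3 LM and 3 LS root libraries. After trimming with bbduk and a joint Trinity assembly, the authors aligned the reads with HISAT2 2.0.4, merged transcripts with StringTie 1.3.5, counted uniquely aligned reads per gene with HTSeq and deposited the counts without normalization. Whether counting used strand, and the version of HTSeq, is not given in the sources used here. The 5 entries that name no gene, 68.3% to 72.8% of all counts in a file, were left out. Descriptions, taxa and GO terms came from the 1159 genes of the study's plant table used here.

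All genes were fitted together in R 4.3.3 with edgeR 4.0.16 (TMM, filterByExpr with a minimum count of 10 and a minimum total of 15, quasi-likelihood test, Benjamini-Hochberg adjustment, threshold 0.05). The standard errors given for this test are not part of its output. They were derived as the absolute log2 fold change divided by the square root of the F statistic, and are approximate. The 4 members that did not pass the filter were described by counts, a ratio of mean CPM, a ratio of summed counts with its exact interval and, except for MSTRG.37 and MSTRG.38, exact permutation tests. Named were all 6 members, MSTRG.1358, other peptidase genes with an unadjusted p under 0.05, and the 3 genes most correlated with each tested member (prior count of 2). Green-tissue genes were those described as photosystem, chlorophyll a-b binding or Rubisco proteins. Alternatives used DESeq2 1.42.0, limma 3.58.1, other scalings, filters and gene sets, a replicate block and each library left out. Members and lists were chosen with earlier results of these data known. The scripts were tested on simulated data.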

Additional observations from a re-analysis of the deposited data

How the results depend on the processing

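Of all alternatives, only DESeq2 on all genes changed the number of members called, to 1. That member was MSTRG.1627, at a log2 fold change of -5.40. When single libraries were left out, the number of members called was 0 each time, but only the fit without LM6 called any gene at all. The log2 ratio of MSTRG.246 changed sign without LM3, to -0.82, that of MSTRG.1627 was -1.92 without LS3, and the causes were not tested. Left-out libraries gave -6.53 to -1.92 for MSTRG.1627, -0.82 to 2.46 for MSTRG.246, -4.76 to -3.19 for MSTRG.37 and -2.82 to -1.25 for MSTRG.38, leaving aside the fits for these 2 genes without LM3 or LS3, where 1 group had 0 counts and no ratio could be given. Without LS3 that group was LS, so that the direction of both genes turned. The highest share of MSTRG.903 was 23.5% in LS3 in raw counts and 27.0% in LS6 with RLE factors. The 116 other values changed no call and, where they have one, no direction.

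Whether the replicate numbers of the labels pair the libraries was not settled. Correlations were taken over the tested genes on log2 CPM, after each gene's mean within LM or within LS was subtracted. Libraries with the same replicate number in their labels then correlated at -0.0547 (LM3 with LS2), 0.258 (LM4 with LS3) and 0.242 (LM6 with LS6). Those with different replicate numbers correlated at -0.343 to 0.143. The highest of these, 0.143, was that of LM3 with LS3, whose library names share a number. LM4 with LS3 and LM6 with LS6 were thus the highest pairs, and LM3 with LS2 was not among them. With the replicate block, 0 members were called, with a log2 fold change of -1.14 (adjusted p = 0.175 from edgeR) for MSTRG.903 and -0.93 (adjusted p = 0.460) for MSTRG.1958, while 2319 of all 22268 genes were called. The number called among all genes was 815 with RLE factors, 1202 with library sizes alone, 2118 of 19255 genes with a minimum of 10 counts throughout 1 group, 308 of 87766 without a filter, 4613 by the likelihood ratio test, 1020 by limma-voom and 8675 of 45958 by DESeq2. Fits of the listed plant genes alone called 0 of 719 and 0 of 714 with edgeR (113 and 111 with an unadjusted p under 0.05), and 74 of 1002 with DESeq2. MSTRG.37 and MSTRG.38 are limited by depth.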

Other observations

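MSTRG.1627 was not alone in lying almost wholly in LS3. Of the 662 listed plant genes with at least 100 counts, 7 had at least 75% of their CPM in LS3, and the 6 besides MSTRG.1627 were chosen by their values. The Piezo channel homolog MSTRG.1543 had 0, 2 and 3 counts in LM3, LM4 and LM6, against 6, 317 and 4 counts in LS2, LS3 and LS6. An expansin (MSTRG.861), of the proteins that loosen plant cell walls, had 3, 2 and 1 counts in LM, against 4, 124 and 1 counts in LS. A membrane-associated kinase regulator (MSTRG.1989) had 2, 0 and 0 counts in LM, against 0, 140 and 7 counts in LS. The others were the cytochrome P450 genes MSTRG.2166 and MSTRG.2165, described as members of the CYP78A family, with 79.6% and 76.3% of their CPM in LS3, and a beta-fructofuranosidase (MSTRG.2405), with 77.9%. The same limits were met by 4 genes in LM3, 6 in LM4, 2 in LM6, 8 in LS2 and 2 in LS6.

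In LM3, where MSTRG.246 was high, an early nodulin-93 gene (MSTRG.359, named after its values were seen) had 316 counts, against 0 and 9 in LM4 and LM6 and 2, 0 and 1 in LS2, LS3 and LS6. A NAC transcription factor gene (MSTRG.783, likewise) had 474, 96 and 9 counts in LM, against 0, 0 and 1 counts in LS.

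Among the other peptidase genes, 2 described as COP9 signalosome subunit 5 differed between libraries of 1 group. MSTRG.1242 had 3, 196 and 7 counts in LM3, LM4 and LM6, against 3, 1 and 1 counts in LS2, LS3 and LS6. MSTRG.1243 had 472, 1 and 467 counts in LM, against 353, 407 and 295 counts in LS, so that LM4 was high in MSTRG.1242 and near 0 in MSTRG.1243. Both were chosen by their values, and whether reads of 1 locus were split between them was not tested. The chlorophyll a-b binding protein gene MSTRG.13 had 0, 0 and 1 counts in LM, against 69, 0 and 1 counts in LS.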
